A study of Homo sapiens with 12 samples.

Results

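IRF1 knockout clones of CFPAC1 were compared with the untreated parental line by the extent of H3K27 acetylation. CFPAC1 is a cell line from a human pancreatic ductal adenocarcinoma that the study's title places among low-grade lines. The comparison used the 4 libraries whose labels name an IRF1 knockout clone or untreated CFPAC1, out of 12 in the series. The IRF1KO group was 2 clonal lines isolated by limiting dilution after infection with lentiCRISPRv2, a lentiviral vector for wild-type Cas9 with a guide RNA against IRF1, and each library is 1 clone. The UT group was 2 libraries of the uninfected, uncloned CFPAC1 population. Knockout, infection and cloning therefore all separate these groups and cannot be told apart within this comparison. A further group of 2 WT clones, isolated in the same way after infection with the vector and with no guide named in the labels, is given beside the results, because it shares infection and cloning with the knockout clones. All 6 CFPAC1 libraries named here received no interferon. The labels do not say whether the 2 bulk libraries came from separate cultures, so the p-values measure the spread between libraries.

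IRF1 is a factor induced by interferons that binds interferon-response elements made of repeated GAAA blocks and activates antiviral, chemokine and antigen-presentation genes. Acetylation of lysine 27 of histone H3 marks active promoters and enhancers, and wide acetylated domains lie at highly transcribed genes and genes that define a cell type. In pancreatic ductal cancer, low-grade or classical cells keep epithelial transcription factors, mucins and secreted proteases, whereas high-grade or mesenchymal cells use repressors of epithelial genes such as ZEB1 and ZEB2.

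The lists of the knockout clones held 80876 and 109834 peaks covering 78.6 and 90.8 Mb, those of the WT clones 90115 and 80584 peaks covering 85.8 and 75.6 Mb, and those of the bulk line 97416 and 102802 peaks covering 84.7 and 94.8 Mb. The knockout clones resembled each other less than the bulk libraries did: the Jaccard index of covered bases was 0.576 between clones 1 and 2 and 0.652 between the bulk libraries. Clone 1 overlapped the WT clones (0.638 and 0.633) and the bulk libraries (0.611 and 0.586) more than it overlapped clone 2. Clone 1 also had the highest smallest -log10 q in its list (1.37, against 1.30 to 1.32 in the other 11 libraries), and the part of this in its results was not tested. Among CFPAC1 libraries clone 2 had the most peaks, the narrowest median width (478 bp) and the lowest median fold enrichment from the authors' caller (4.91). Its share of peaks with −log10 q of at least 5 was also the lowest, 62.7%, against 67.3% to 76.1%. The part of this in the results of clone 2 was not tested. All 10 ductal epithelial markers were covered in both clones and both bulk libraries, with 58214 and 53798 bp summed in the clones and 61157 and 62710 bp in the bulk line. The 4 endocrine markers (INS, GCG, CHGA, NEUROD1), 3 of 5 acinar markers (PRSS1, PTF1A and AMY2A) and the leukocyte gene PTPRC had no coverage in any of these 4 libraries. Other markers were covered: 4 of 6 leukocyte markers in each knockout clone (8823 and 8919 bp summed) and 3 in each bulk library (7738 and 5699 bp), and 3 of 4 endothelial markers in each of the 4 (6294 and 8415 bp in the clones, 5728 and 4953 bp in the bulk line). The acinar sum was 1556 and 3400 bp in the clones and 1545 and 1746 bp in the bulk line, and the part of other cell types in the results was not tested.

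The unit of the gene results is the covered length, the number of bases under peaks within 5 kb either side of 1 end of a gene. It measures how far called peaks spread and does not read their height. It also falls where a signal drops below the caller's threshold. Changes are differences of log2(covered bp + 500), which understate the change of genes with little coverage. A gene was called at a limma adjusted p under 0.05 over 15513 genes, with the spread pooled over all 6 groups. Besides the knockout, WT and bulk groups, these were CFPAC1 given interferon-β (1000 U/ml for 2 h) and MiaPaCa2 without and with it. MiaPaCa2 is another pancreatic cancer line, so part of the spread behind each p-value comes from another line and from treated cells. Positions are on GRCh38.

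Acetylated length at IRF1 itself was not called different. The knockout clones had 7533 and 8924 bp covered, the WT clones 5485 and 5611 bp and the bulk libraries 7777 and 6832 bp (0.06 ± 0.14 SE for knockout minus bulk, limma adjusted p = 0.879). The values of clones and bulk line overlapped. Peaks reaching within 5 kb of the start lay between chr5:132485891 and chr5:132503432 in clone 1 and between chr5:132486062 and chr5:132503594 in bulk library 1. These were separate peaks with gaps between them. They lay over part of the gene (chr5:132481609-132490773, minus strand) and its upstream flank. Peak coverage does not read a short edit, so it does not check the knockout.

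Sequences are shown for IRF1 and for some of the genes with the largest changes. The letters at their starts can then be read against the acetylation there. Each is 250 bases before to 50 after a transcript start from RefSeq on GRCh38.p14, 5′ to 3′ on the gene's strand, and capitals mark matches to any of 8 motifs named with the motif counts.
GABRP, chr5:170783475-170783774, plus strand: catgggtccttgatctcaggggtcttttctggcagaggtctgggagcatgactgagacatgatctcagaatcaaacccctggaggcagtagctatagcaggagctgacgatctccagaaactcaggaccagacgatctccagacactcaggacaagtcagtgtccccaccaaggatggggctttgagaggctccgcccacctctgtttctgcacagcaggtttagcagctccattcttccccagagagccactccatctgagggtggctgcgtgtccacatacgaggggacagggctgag
ZEB2, chr2:144520070-144520369, minus strand: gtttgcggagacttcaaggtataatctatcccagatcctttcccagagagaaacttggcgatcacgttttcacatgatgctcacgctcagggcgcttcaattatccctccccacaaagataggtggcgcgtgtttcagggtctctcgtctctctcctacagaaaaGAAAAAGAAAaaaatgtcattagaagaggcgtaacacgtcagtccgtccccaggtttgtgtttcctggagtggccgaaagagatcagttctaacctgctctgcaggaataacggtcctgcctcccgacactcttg
TENM4, chr11:79440981-79441280, minus strand: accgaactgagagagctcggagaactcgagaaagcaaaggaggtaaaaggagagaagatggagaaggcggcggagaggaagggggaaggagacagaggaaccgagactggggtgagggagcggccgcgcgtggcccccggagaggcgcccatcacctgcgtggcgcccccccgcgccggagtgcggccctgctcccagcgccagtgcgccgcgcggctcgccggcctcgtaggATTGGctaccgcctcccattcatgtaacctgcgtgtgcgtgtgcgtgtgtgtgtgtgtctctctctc
IRF1, chr5:132490724-132491023, minus strand: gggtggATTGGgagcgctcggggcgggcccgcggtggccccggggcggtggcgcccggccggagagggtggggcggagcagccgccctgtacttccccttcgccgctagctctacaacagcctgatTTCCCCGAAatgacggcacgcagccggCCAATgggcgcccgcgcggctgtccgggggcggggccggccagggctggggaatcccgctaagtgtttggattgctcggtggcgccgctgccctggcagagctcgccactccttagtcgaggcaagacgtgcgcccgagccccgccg
The GABRP promoter lay wholly under peaks in both WT clones and both bulk libraries (300 of 300 bases each) and had 0 bases covered in both knockout clones. Promoters of other genes with large decreases, not printed, did not show this pattern. The UNC13C promoter, 140839 bases from the gene's edge, had 0 and 258 bases covered in the knockout clones and 0 in the WT clones and bulk libraries. The MUSK promoter had 0 bases covered in all of these libraries. At ZEB2 and TENM4 the promoter itself was hardly covered (0 and 15 bases in the knockout clones at ZEB2, 0 and 95 bases at TENM4, and 0 bases in the WT clones and the bulk libraries), so the coverage described for them lies beside the start. The IRF1 promoter, which holds a TTCNNNGAA match at position -124 from the start, had 200 and 300 bases covered in the knockout clones, 192 and 166 in the WT clones and 112 and 177 in the bulk line.

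Relative to the bulk line, the knockout clones had less acetylated length at the membrane protease TMPRSS4, 4 kallikreins, GABRP, RBBP8 and COL17A1, and more at ZEB2, COL6A2 and TENM4. In all, 322 of 15513 genes were called (2.08%), of which 150 were higher (0.967%) and 172 were lower (1.11%). In each of the 322, both clones lay beyond both bulk libraries, a pattern that 30.4% of all genes showed upward and 13.5% downward. Of the 150 higher genes, 94 had 0 bp in both bulk libraries; of the 172 lower genes, 15 had 0 bp in both clones. With 2 libraries against 2, a permutation of labels cannot give a two-sided p under 0.333. Without centring the libraries, 174 genes were higher and 104 lower. Among genes with a mean covered length of at least 500 bp, 48 were higher and 118 lower. With the spread taken from the 4 libraries alone no gene was called by limma (1994 had an unadjusted p under 0.05), and the count was 54 without bulk library 1, 21 without bulk library 2, 192 without clone 2 and 1022 without clone 1.

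The WT clones shared part of these differences. Against the WT clones, 194 genes were called (1.25%), 110 higher (0.709%) and 84 lower (0.541%), and they held 64 of the 150 higher and 69 of the 172 lower genes. Without centring, 150 genes were higher and 46 lower than in the WT clones. The 2 comparisons share the knockout libraries. Between the WT clones and the bulk line 1 gene was called (0.00645%) by limma, ZEB2 (1.78, adjusted p = 0.0319), and 986 had an unadjusted p under 0.05.

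TMPRSS4, a membrane serine protease at chr11:118077078-118125505, had the largest decrease. The knockout clones had 658 and 0 bp, the WT clones 5980 and 3251 bp and the bulk libraries 7712 and 6554 bp (-3.42 ± 0.35 SE against bulk, limma adjusted p = 0.00357). Both knockout clones lay below every other CFPAC1 library shown. Fewer cells with an acetylated gene and less acetylation in every cell cannot be told apart in such libraries. GABRP, a subunit of an epithelial GABA receptor, followed the same order, with 248 and 954 bp in the knockout clones, 3110 and 4333 bp in the WT clones and 6918 and 6126 bp in the bulk line (-2.85 ± 0.30, limma adjusted p = 0.00375). RBBP8, which encodes the DNA end-resection factor CtIP, had 0 bp in both knockout clones, 2801 and 1594 bp in the WT clones and 1815 and 2132 bp in the bulk line (-2.40 ± 0.25, limma adjusted p = 0.00373). STX19, a syntaxin of membrane fusion, had 221 and 0 bp in the knockout clones, 2072 and 1483 bp in the WT clones and 1754 and 2171 bp in the bulk line (-2.13 ± 0.21, limma adjusted p = 0.00354). At each of these 4 genes both knockout clones lay below both WT clones, and each was also called against the WT clones (adjusted p = 0.0115, 0.0171, 0.00515 and 0.00558).

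Other large decreases were shared by the WT clones in part or whole. SPINK1, a secreted inhibitor of trypsin, had 266 and 520 bp in the knockout clones, 1168 and 604 bp in the WT clones and 3156 and 4016 bp in the bulk line (-2.30 ± 0.22 against bulk, limma adjusted p = 0.00327). Its knockout and WT clones lay below the bulk line, and the difference between the 2 kinds of clone was not called (-0.73, adjusted p = 0.165). ITIH2, a secreted hyaluronan-binding protein, had 0 and 233 bp in the knockout clones, 0 bp in both WT clones and 2765 and 2559 bp in the bulk line, so both kinds of clone lay below the bulk line (-2.48 ± 0.35 for knockout minus bulk, limma adjusted p = 0.0103). LIFR, the receptor subunit for leukaemia inhibitory factor, had 1880 and 2046 bp in the knockout clones, 1736 and 1713 bp in the WT clones and 4345 and 3821 bp in the bulk line (-0.99 ± 0.16, limma adjusted p = 0.0156). UNC13C, MUSK, RHEX, GJB1, ZBED2, KCNJ15, LYZ and the olfactory receptor genes OR4C6 and OR4S2 complete the 15 largest decreases, with changes of -1.92 to -2.94. The windows of MUSK, ZBED2 and OR4S2 lie at the downstream end. For TMPRSS4, ITIH2 and LYZ the strand was unknown, so whether their windows lie at the start or the downstream end cannot be said. MUSK (adjusted p = 0.0491) and RHEX (adjusted p = 0.048) passed narrowly.

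**Figure D1:**
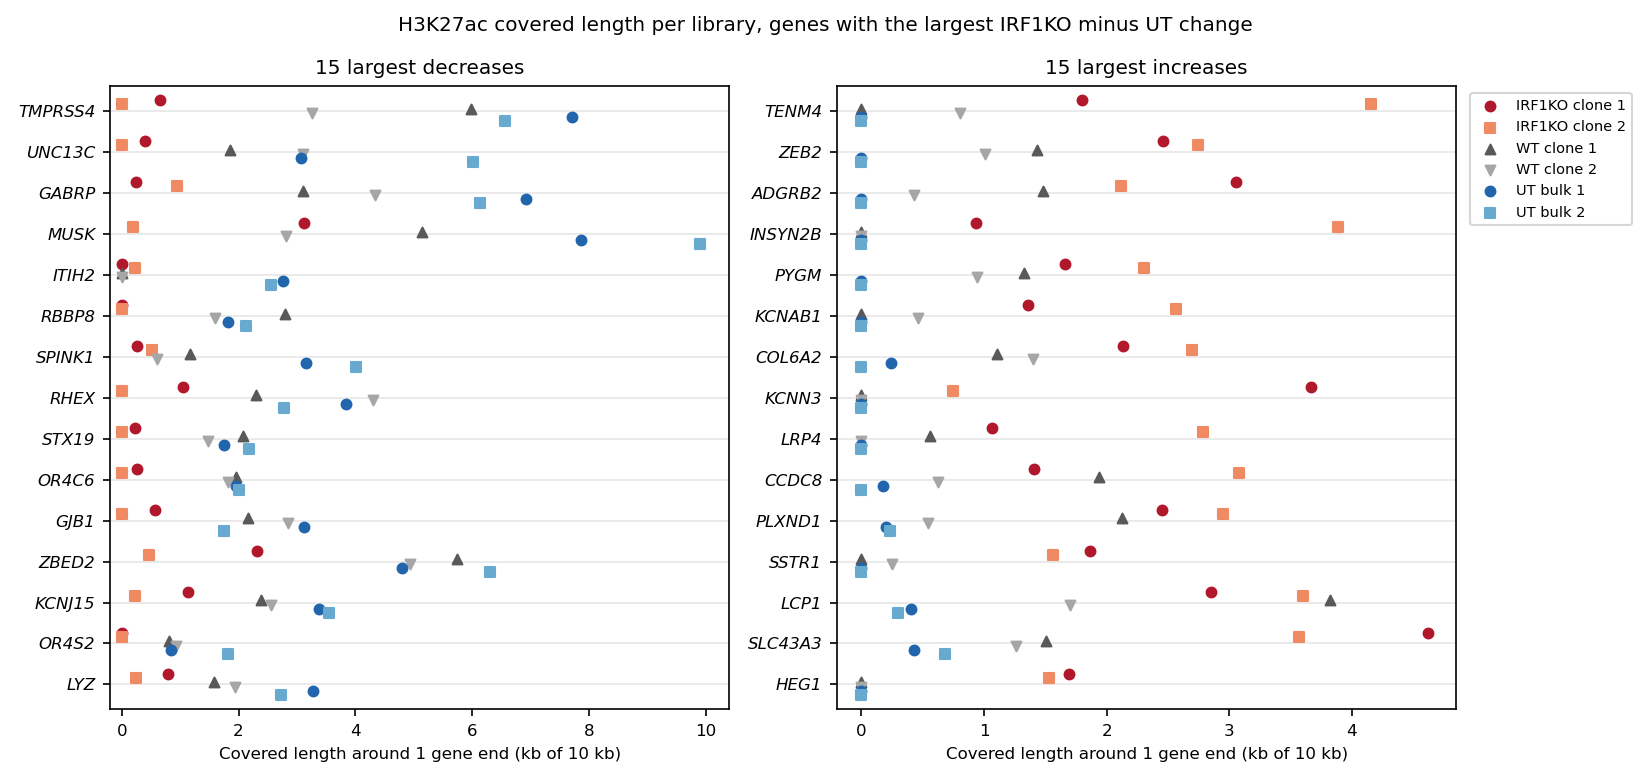
Covered length per library (kb, horizontal) at the 15 genes with the largest decrease (left) and the 15 with the largest increase (right), for the IRF1KO clones (red and orange), WT clones (grey) and UT bulk libraries (blue). Each point is 1 library; TMPRSS4 shows 658 and 0 bp in the knockout clones, against 7712 and 6554 bp in the bulk libraries, and ZEB2 shows 2462 and 2747 bp in the knockout clones, against 0 bp in both bulk libraries.

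Among genes with more acetylated length, ZEB2, a repressor of epithelial genes at chr2:144384081-144520119, had the smallest adjusted p-value of those named. The knockout clones had 2462 and 2747 bp, the WT clones 1430 and 1011 bp and the bulk libraries 0 bp (2.53 ± 0.18 against bulk, limma adjusted p = 0.00131). Knockout clones exceeded WT clones and WT clones exceeded the bulk line, with the knockout and WT clones separated by 0.75 (adjusted p = 0.0893). A ZEB2 locus at chr2:144517165-144518711, which begins 1408 bases from the gene end, was held by both knockout clones (1251 and 1515 bp) and both WT clones (893 and 772 bp) and by neither bulk library. TENM4, a teneurin of neural adhesion, had 1801 and 4161 bp in the knockout clones, 0 and 800 bp in the WT clones and 0 bp in both bulk libraries (2.61 ± 0.54, limma adjusted p = 0.0405). SSTR1, a somatostatin receptor, had 1864 and 1566 bp in the knockout clones, 0 and 253 bp in the WT clones and 0 bp in the bulk line (2.05 ± 0.25, limma adjusted p = 0.00692), and it was also called against the WT clones (adjusted p = 0.0171). HEG1, a receptor of endothelial junctions, had 1691 and 1528 bp in the knockout clones and 0 bp in all WT and bulk libraries (1.98 ± 0.34, limma adjusted p = 0.0211). PLPP4, a lipid phosphatase, had 1432 and 1768 bp in the knockout clones and 0 bp in the WT clones and the bulk line (1.97 ± 0.19, limma adjusted p = 0.00327). Libraries at 0 bp in both members of a group have no spread between them, so the p-values of such genes rest on few libraries.

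LCP1, an actin-bundling protein of leukocytes, showed a gain that the WT clones held as well: 2851 and 3604 bp in the knockout clones, 3822 and 1699 bp in the WT clones and 402 and 298 bp in the bulk line (2.03 ± 0.26 against bulk, limma adjusted p = 0.00817). COL6A2, a chain of collagen VI, had 2131 and 2700 bp in the knockout clones, 1107 and 1399 bp in the WT clones and 238 and 0 bp in the bulk line (2.16 ± 0.29, limma adjusted p = 0.00872). At both genes the 4 clones lay above the bulk libraries. The others of the 15 largest increases were ADGRB2, INSYN2B, PYGM, KCNAB1, KCNN3, LRP4, CCDC8, PLXND1 and SLC43A3, with changes of 2.03 to 2.51. The KCNAB1 window lies at the downstream end, and the strand of INSYN2B, PYGM, LRP4 and SLC43A3 was unknown. INSYN2B (938 and 3886 bp in clones 1 and 2) and KCNN3 (3667 and 746 bp) had 0 bp in every other library of the series. These 2 genes passed the filter of at least 2 covered libraries only through the knockout clones. The clones also differed there (clone 2 minus clone 1, 1.63 at INSYN2B and -1.72 at KCNN3). Outside the knockout clones, SSTR1, KCNAB1 and GREM1 were covered only in a WT clone (253, 462 and 330 bp). They therefore also needed the knockout clones to pass the filter, and their calls are no separate support.

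The list of membrane serine proteases and kallikreins, enzymes that process proteins at the cell surface and in secretions, had the lowest median change of the 20 lists. Of 18 members 17 were tested. Of these 0 were higher, 5 were lower and 12 were not called, where 0.967% of all genes were higher and 1.11% lower. The list median was -0.92, against -0.04 over all genes. The median was -0.34 in clone 1, with 2 lower, and -1.18 in clone 2, with 7 lower; against the WT clones it was -0.30, with 2 lower. Besides TMPRSS4 the lower members were KLK6, KLK7, KLK10 and KLK11, kallikreins of 1 cluster on chromosome 19. KLK6 had 2513 and 881 bp in the knockout clones, 5026 and 4841 bp in the WT clones and 5569 and 4767 bp in the bulk line (-1.57 ± 0.31 against bulk, limma adjusted p = 0.034). KLK10 and KLK11 share a window, so their values (-1.46 and -1.60) are largely 1 measurement. The KLK7 window lies at the downstream end of the gene, and at its annotated start the change was -0.11 (adjusted p = 0.833). The KLK11 window lies downstream as well, and KLK11 was not called at its annotated start (-1.85, limma adjusted p = 0.096). ST14, which encodes matriptase, had 3309 and 931 bp in the knockout clones, 3469 and 3795 bp in the WT clones and 3779 and 4144 bp in the bulk line (adjusted p = 0.174), with the low value in clone 2.

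Keratins, mucins and classical tumour markers had 32 of 34 members tested, with 0 higher, 4 lower and a median of -0.27. Of all genes 0.967% were higher and 1.11% lower. LYZ, lysozyme, had 799 and 253 bp in the knockout clones, 1588 and 1936 bp in the WT clones and 3266 and 2724 bp in the bulk line (-1.92 ± 0.26 against bulk, limma adjusted p = 0.00872). MUC20, a membrane mucin, had 1757 and 1550 bp in the knockout clones, 2771 and 2763 bp in the WT clones and 3838 and 3478 bp in the bulk line (-1.05 ± 0.15, limma adjusted p = 0.0102). At both genes the WT clones lay between the knockout clones and the bulk line. REG4, a secreted lectin, and CEACAM5, the carcinoembryonic antigen, had 0 bp in both knockout clones, but their windows lie at the downstream end, and neither was called at its annotated start (-0.41, adjusted p = 0.495, and -0.51, adjusted p = 0.554).

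Epithelial transcription factors and adhesion genes had 27 of 28 members tested, with 0 higher, 1 lower (1.11% over all genes) and a median of -0.38. Of their changes 7.41% were positive, against 44.2% over all genes. CDH1, E-cadherin, had 4819 and 4582 bp in the knockout clones and 5312 and 5287 bp in the bulk line (-0.26, adjusted p = 0.303). The called member was KLF5, a transcription factor of gut and pancreatic epithelium at chr13:73054976-73077538, and its window lies at the downstream end of the gene. There the knockout clones had 2253 and 4314 bp, the WT clones 8432 and 4612 bp and the bulk libraries 8379 and 8112 bp (-1.36 ± 0.27 against bulk, limma adjusted p = 0.0362), whereas at its start the change was -0.14 (adjusted p = 0.603).

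KLF5 sits beside a wide gene-poor interval that is dense in acetylated elements, and its coverage differed between the groups. From 400 kb before to 400 kb after the KLF5 start, peaks covered 80539 and 68724 bp in the knockout clones, 136458 and 103819 bp in the WT clones and 135259 and 164998 bp in the bulk line. Within 10 kb of the start the ranges of the groups overlapped, 9246 and 9533 bp in the knockout clones, 9713 and 9306 bp in the WT clones and 9340 and 9500 bp in the bulk line. Of the 122 loci in the interval 0 were gained and 26 were lost, 23 of them between 10 and 400 kb beyond the start. The 5 Mb window that holds it, 70 to 75 Mb of chromosome 13, was the 1 window of 484 called (0.207%), with 113 and 114 kb covered in the knockout clones, 200 and 151 kb in the WT clones and 200 and 254 kb in the bulk line (-0.82 ± 0.13 against bulk, limma adjusted p = 0.0395). This call was lost with the 4 libraries alone, with the 8 CFPAC1 libraries, without clone 2 and without bulk library 2 (0 windows called in each).

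**Figure D2:**
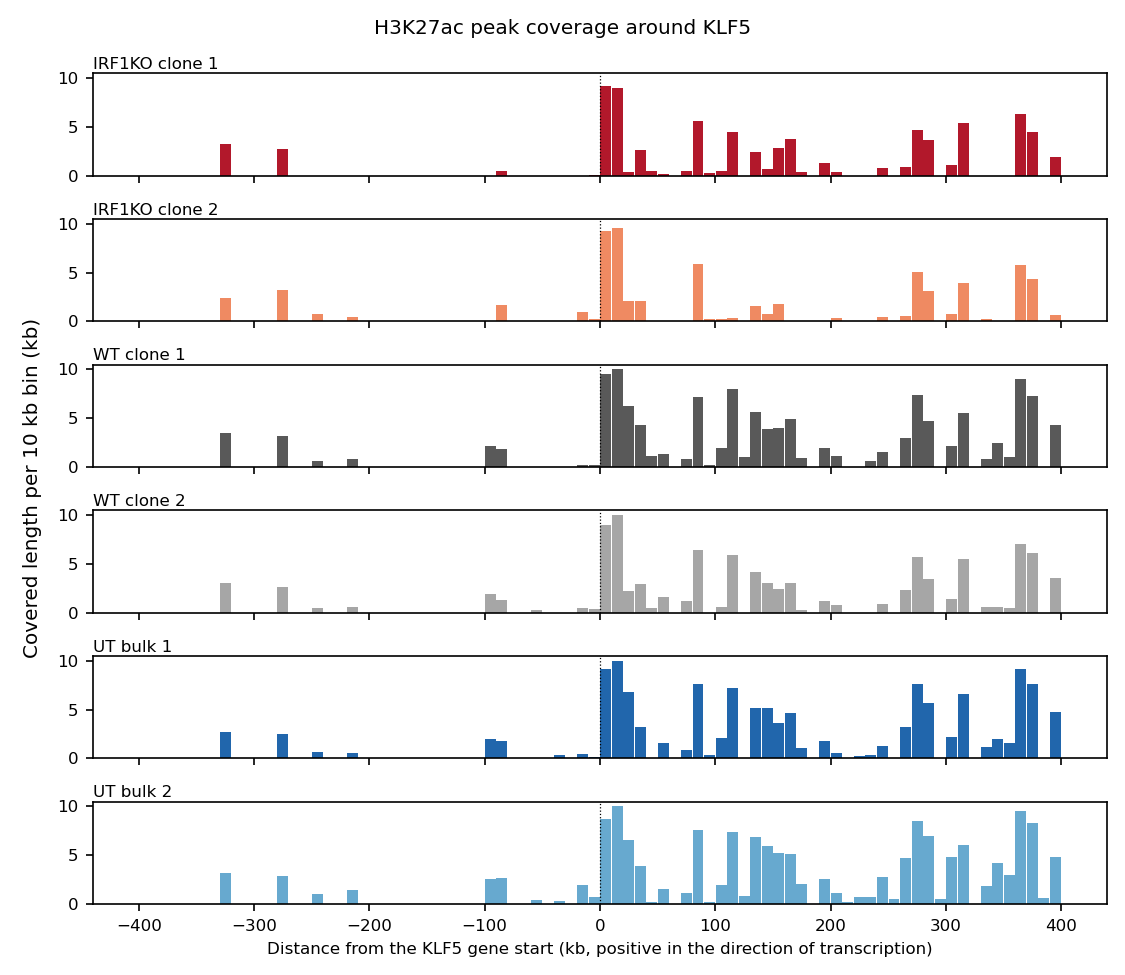
Covered length in 10 kb bins (kb, vertical) by distance from the KLF5 start (kb, horizontal), 1 panel per library, with IRF1KO clones at the top, WT clones in the middle and UT bulk libraries at the bottom. The bins at the start are nearly full in every library, and between 10 and 400 kb beyond it the knockout clones have 64823 and 49751 bp, against 114947 and 139151 bp in the bulk libraries.

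Genes of the extracellular matrix and its receptors changed in both directions. Of 29 members tested 1 was higher, COL6A2, and 4 were lower, COL17A1, ITGA1, ITGA6 and ITGB6, with a median of -0.10. Of all genes 0.967% were higher and 1.11% lower. COL17A1, the transmembrane collagen of hemidesmosomes at chr10:104031286-104085880, had 1692 and 1657 bp in the knockout clones, 5867 and 5392 bp in the WT clones and 5530 and 6101 bp in the bulk line (-1.64 ± 0.20 against bulk, limma adjusted p = 0.00741). The knockout clones stood apart from the WT clones here as well (-1.60, adjusted p = 0.0118). ITGB6, the epithelial integrin chain that activates latent TGF-β, had 2809 and 3080 bp in the knockout clones, 6119 and 6049 bp in the WT clones and 4800 and 5750 bp in the bulk line (-0.84 ± 0.12, limma adjusted p = 0.0118). ITGA1, a collagen receptor, had 2232 and 2476 bp in the knockout clones, 2925 and 3284 bp in the WT clones and 5750 and 6261 bp in the bulk line (-1.29 ± 0.19, limma adjusted p = 0.0119), so its WT clones lay near the knockout clones.

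The list of epithelial-mesenchymal transition genes had 19 of 20 members tested, with 3 higher (0.967% over all genes), 0 lower and a median of -0.01. Besides ZEB2 these were VIM, the intermediate filament vimentin, and TWIST2, a mesenchymal transcription factor. VIM had 6027 and 6334 bp in the knockout clones, 6101 and 5659 bp in the WT clones and 3953 and 3729 bp in the bulk line (0.52 ± 0.09 against bulk, limma adjusted p = 0.0169). TWIST2 had 1903 and 1868 bp in the knockout clones, 2581 and 1478 bp in the WT clones and 464 and 574 bp in the bulk line (1.13 ± 0.23, limma adjusted p = 0.0381). For both genes the WT clones were as high as the knockout clones, and neither was called between the 2 kinds of clone (-0.04, adjusted p = 0.855, and -0.16, adjusted p = 0.803). ZEB1, the paralogue of ZEB2, had 4130 and 4892 bp in the knockout clones, 5479 and 6201 bp in the WT clones and 4434 and 5683 bp in the bulk line (adjusted p = 0.484).

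Other lists with a single call were endodermal transcription factors, with PROX1 higher among 22 tested, TGF-β and BMP genes, with GREM1 higher among 26, glutathione and redox genes, with GPX2 lower among 27, and mucin-type glycosylation, with ST6GALNAC1 lower among 25. With 2.08% of all genes called, a single call in a list of this size is not read as a result of the list. PROX1, a homeodomain factor of early pancreas and liver, had 894 and 1820 bp in the knockout clones, 130 and 0 bp in the WT clones and 23 and 219 bp in the bulk line (1.45 ± 0.27 against bulk, limma adjusted p = 0.025). ST6GALNAC1, which caps mucin glycans with sialic acid, had 3430 and 2769 bp in the knockout clones, 4445 and 4115 bp in the WT clones and 6058 and 5575 bp in the bulk line (-0.92 ± 0.13, limma adjusted p = 0.0106). PDGFRB, a growth factor receptor of fibroblasts and pericytes, had 894 and 1146 bp in the knockout clones and 0 bp in the WT clones and the bulk line (1.50 ± 0.31, limma adjusted p = 0.0408). It belongs to the 7 fibroblast markers, whose summed coverage was 6712 and 8082 bp in the knockout clones, 3999 and 4108 bp in the WT clones and 2282 and 4906 bp in the bulk line, while DCN and THY1 were at 0 bp in the knockout and bulk libraries.

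Metabolic programmes are named in the study's title. Of the list of sterol and fatty acid synthesis, with 34 members, 33 were tested, with a median of -0.36. Of these 0 were higher, 2 were lower (1.11% over all genes) and 31 were not called. SCD, the desaturase that makes monounsaturated fatty acids at chr10:100347233-100364826, had 4674 and 4745 bp in the knockout clones, 6015 and 5471 bp in the WT clones and 7116 and 7349 bp in the bulk line (-0.67 ± 0.07 against bulk, limma adjusted p = 0.00379). The 3 groups did not overlap, with the WT clones in the middle, and the knockout clones were also below the WT clones (-0.37, adjusted p = 0.0453). HMGCS1, an early enzyme of cholesterol synthesis, had 3110 and 1880 bp in the knockout clones, 3049 and 5430 bp in the WT clones and 6264 and 6115 bp in the bulk line (-1.29 ± 0.26, limma adjusted p = 0.0366). No member was called of acyl-CoA synthetases and fatty acid oxidation (38 tested, median -0.06), glycolysis and pentose phosphate (33 tested, median -0.05) or amino acid and serine metabolism (27 tested, median -0.06). With 2.08% of all genes called, lists of these sizes could hold no call without differing from other genes. ACSL5, a long-chain acyl-CoA synthetase, had 5424 and 5690 bp in the knockout clones, 5490 and 5625 bp in the WT clones and 6293 and 5590 bp in the bulk line (adjusted p = 0.53).

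The list of interferon-stimulated genes, the textbook targets of IRF1, had no called member for the clones together. NMI, which was called lower and is described with the motifs below, is not on this list. All 60 interferon-stimulated genes of the list were tested, with a median of -0.16, and 21.7% of their changes were positive, against 44.2% over all genes. By clone, the median was -0.31 in clone 1 and -0.04 in clone 2. In clone 1 10% of changes were positive and in clone 2 43.3%, against 44.6% and 43.9% over all genes. Some members were called in a clone taken alone, lower in clone 1 and higher in clone 2. The difference between the clones over the list was not tested. For the clones together the smallest adjusted p was 0.0881, at GBP4, a guanylate-binding protein, with 509 and 804 bp in the knockout clones, 1452 and 1565 bp in the WT clones and 2205 and 1597 bp in the bulk line (-1.15 ± 0.30). IFIT1, a sensor of viral RNA, had 1674 and 2726 bp in the knockout clones, 2579 and 1426 bp in the WT clones and 1655 and 2227 bp in the bulk line (adjusted p = 0.959), with the groups overlapping. TAP1 and PSMB9, a peptide transporter and an immunoproteasome subunit that share 1 window and are known IRF1 targets, had 2803 and 3197 bp in the knockout clones, 3917 and 2967 bp in the WT clones and 3768 and 3512 bp in the bulk line (-0.34 ± 0.12, adjusted p = 0.174). Interferon signalling (26 tested), antigen presentation (26 tested), NF-κB and inflammatory genes (27 tested), AP-1 and immediate early genes (22 tested), HOX clusters (33 tested) and cytosolic ribosomal proteins (59 tested) also had no called member by limma at an adjusted p under 0.05, with medians between -0.12 and 0.13. Since 2.08% of all genes were called, these lists and the interferon-stimulated list could hold no call without differing from other genes.

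**Figure D3:**
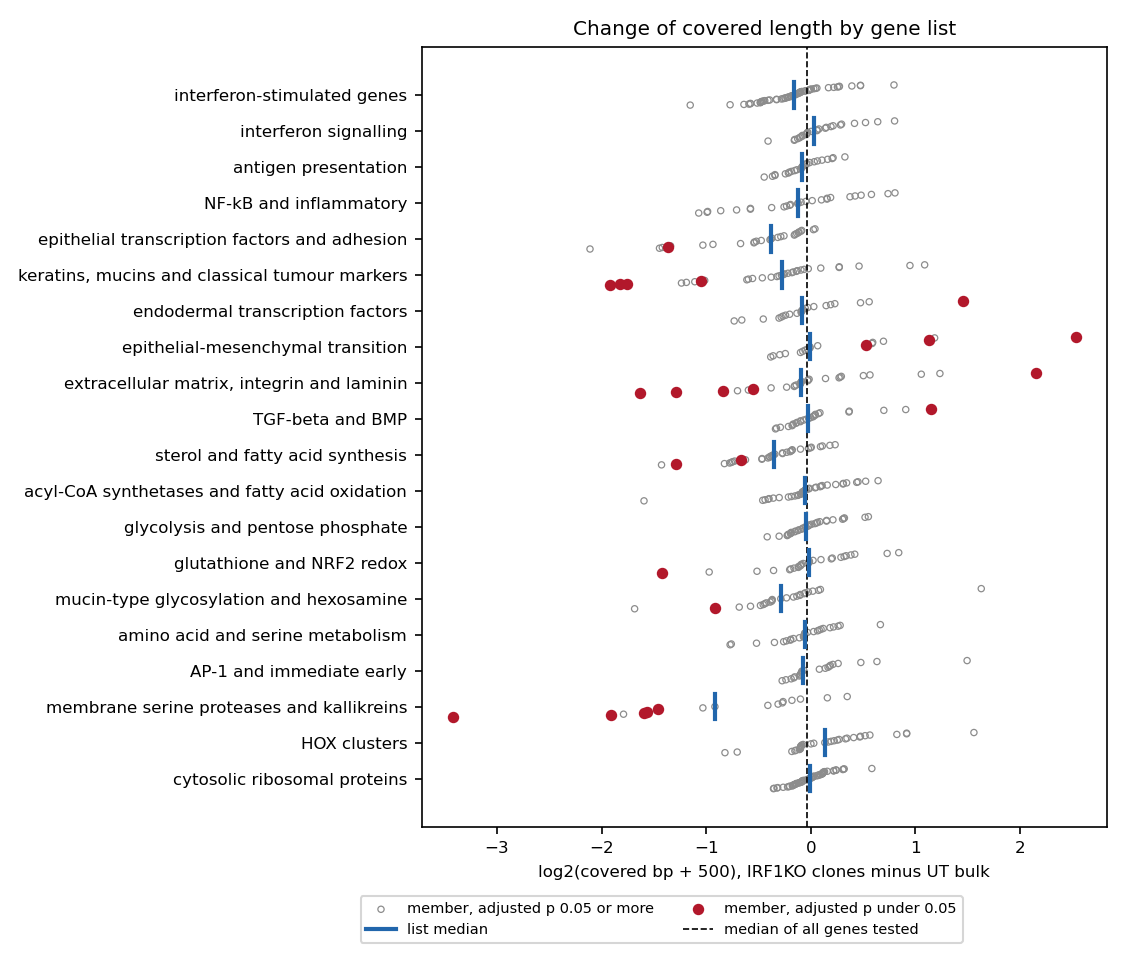
Change in log2(covered bp + 500), IRF1KO clones minus UT bulk (horizontal), of every tested member of the 20 gene lists (rows), with filled points for called members, a bar for the list median and a dashed line at the median of all genes. The protease and kallikrein list lies furthest left, with a median of -0.92 and 5 called members, and the interferon-stimulated list has a median of -0.16 and 0 called members. Of all genes tested 2.08% were called.

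The promoters of called genes were searched for 8 motifs on both strands among 15813 genes with a RefSeq promoter, 1 promoter per gene. The interferon element, a pair of GAAA blocks with any 2 bases between them, was found in 7 of 141 promoters of lower genes (4.96%), in 4 of 116 promoters of higher genes (3.45%) and in 344 of 12497 promoters of all genes tested (2.75%). The STAT motif TTCNNNGAA was found in 9.93% of lower, 4.31% of higher and 6.47% of all tested genes, and the AP-1 motif TGANTCA in 7.80% of lower, 3.45% of higher and 5.03% of all. The NF-κB motif, GGG and TTTCC with any 2 bases between them, was found in 2.13% of lower, 0% of higher and 2.11% of all, and the GRHL motif AACCGGTT in 0% of lower, 0% of higher and 0.112% of all. The FOX motif TGTTTAC was found in 2.84% of lower, 0.862% of higher and 2.30% of all, the GATA motif AGATAA in 9.93% of lower, 5.17% of higher and 5.81% of all, and CCAAT in 31.2% of lower, 32.8% of higher and 36.1% of all. These shares describe letters in 300 bases and no motif overlaps were resolved.
The lower genes with the interferon element were NMI, ADGRG7, ABCC2, COL17A1, FAM111A, SLFN12L and RBCK1, and the higher ones ZEB2, PDGFRB, FEZ1 and BBC3; they are named because they hold the match. The matches of 4 of them, with up to 10 bases either side and the element in capitals, are shown as examples, chosen after their values were seen; the promoters of COL17A1 and BBC3 were covered in the knockout clones as well.
FAM111A, 30 bases after the start: actaggatgcTTTCGCTTTCgctctcgctt
NMI, 163 bases before the start: ttaaagcagtTTTCTTTTTCactgtctttt
RBCK1, 2 bases after the start: gggccgccacTTTCACTTTCtcttccgccg
PDGFRB, 159 bases before the start: gaaaaaaactGAAATTGAAAacagacgcac
FAM111A, an antiviral protease, had 4194 and 4184 bp of covered length in the knockout clones, 4762 and 4865 bp in the WT clones and 5320 and 5866 bp in the bulk line (-0.48 ± 0.09 against bulk, limma adjusted p = 0.0259). NMI, a partner of STAT proteins, had 2638 and 2217 bp in the knockout clones, 3620 and 3351 bp in the WT clones and 3278 and 3322 bp in the bulk line (-0.48 ± 0.09, limma adjusted p = 0.0259). RBCK1, a subunit of the linear ubiquitin ligase, had 4908 and 4775 bp in the knockout clones, 5964 and 4353 bp in the WT clones and 7391 and 8935 bp in the bulk line (-0.79 ± 0.12, limma adjusted p = 0.0132). The promoters of FAM111A and NMI were wholly covered in all 6 libraries, so their decrease lies in the flanks, and the PDGFRB promoter was wholly covered in both knockout clones and uncovered in the other 4.

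The clones were then taken 1 at a time, each against the 2 bulk libraries, with the spread of a lone library taken from the other groups. Clone 1 gave 193 called genes (1.24%), 81 higher (0.522%) and 112 lower (0.722%); without centring 171 were higher and 83 lower, and with no filter 251 were higher and 146 lower. Clone 2 gave 1025 (6.61%), 462 higher (2.98%) and 563 lower (3.63%). Both clones called 53 genes higher, which is 65.4% of the clone 1 genes and 11.5% of the clone 2 genes, and 70 lower, which is 62.5% and 12.4%; both comparisons use the same bulk libraries. In clone 2 alone the lipid list had 10 lower members of 33, among them SREBF2, HMGCS1, MVK, SQLE, INSIG1 and SCD, and 1 higher, MVD, against 1 lower in clone 1, SCD. INSIG1, a sterol sensor, had 3903 bp in clone 1, 2208 bp in clone 2 and 5391 and 4674 bp in the bulk line (clone 2 minus bulk -1.11, limma adjusted p = 0.00778; clone 1 minus bulk -0.44, adjusted p = 0.322). The difference between the clones at INSIG1 was not called (-0.68, adjusted p = 0.165).

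Genes were called between the clones themselves as well, 224 in all (1.44%), 95 higher (0.612%) and 129 lower (0.832%) in clone 2 than in clone 1. GRHL2, a factor that maintains epithelial identity, had 299 bp in clone 2, 4830 bp in clone 1, 7374 and 6433 bp in the WT clones and 7889 and 7761 bp in the bulk line (clone 2 minus clone 1 -2.71, limma adjusted p = 0.00122). Clone 1 was itself below bulk there (-0.75, adjusted p = 0.0488). ESRP1, a splicing factor of epithelial cells, had 500 bp in clone 2 and 4356 bp in clone 1, against 4833 and 4278 bp in the WT clones and 4800 and 4624 bp in the bulk line (clone 2 minus bulk -2.47, limma adjusted p = 3.53e-04). Both genes lie on chromosome 8. CXCL5, a neutrophil chemokine on chromosome 4, had 231 bp in clone 2 and 2518 bp in clone 1, against 2233 and 2548 bp in the WT clones and 2569 and 2269 bp in the bulk line (clone 2 minus clone 1 -2.02, limma adjusted p = 0.0124). In the other direction, PSD2, a signalling gene on chromosome 5, had 6311 bp in clone 2 and 228 bp in clone 1, with 0 bp in the WT clones and the bulk line. IQGAP2, a scaffold protein, had 3198 bp in clone 2 and 0 bp in clone 1, against 1644 and 2659 bp in the WT clones and 5615 and 7168 bp in the bulk line.

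By chromosome, no difference between the knockout clones together and the bulk line was called among 23 (0%; 2 had an unadjusted p under 0.05 by limma, chromosomes 8 and 16). Clone 2 alone had less covered length on chromosome 8 (2.56% of its covered bases, against 4.18% and 4.39% in the bulk libraries; -0.74 ± 0.08 SE on the log2 scale, limma adjusted p = 1.23e-04), 1 chromosome of 23 (4.35%). Clone 1 had 4.05% there (-0.09 ± 0.08, adjusted p = 0.663), and the WT clones had 3.70% and 4.13%. Between the clones, clone 2 was lower than clone 1 on chromosome 8 (-0.64 ± 0.09, limma adjusted p = 0.00113) and higher on chromosome 2 (0.51 ± 0.11, limma adjusted p = 0.019), 2 of 23 (8.7%). On chromosome 2 clone 2 had 10.4% of its covered bases and clone 1 7.40%, against 8.17% and 7.96% in the bulk libraries.

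**Figure D4:**
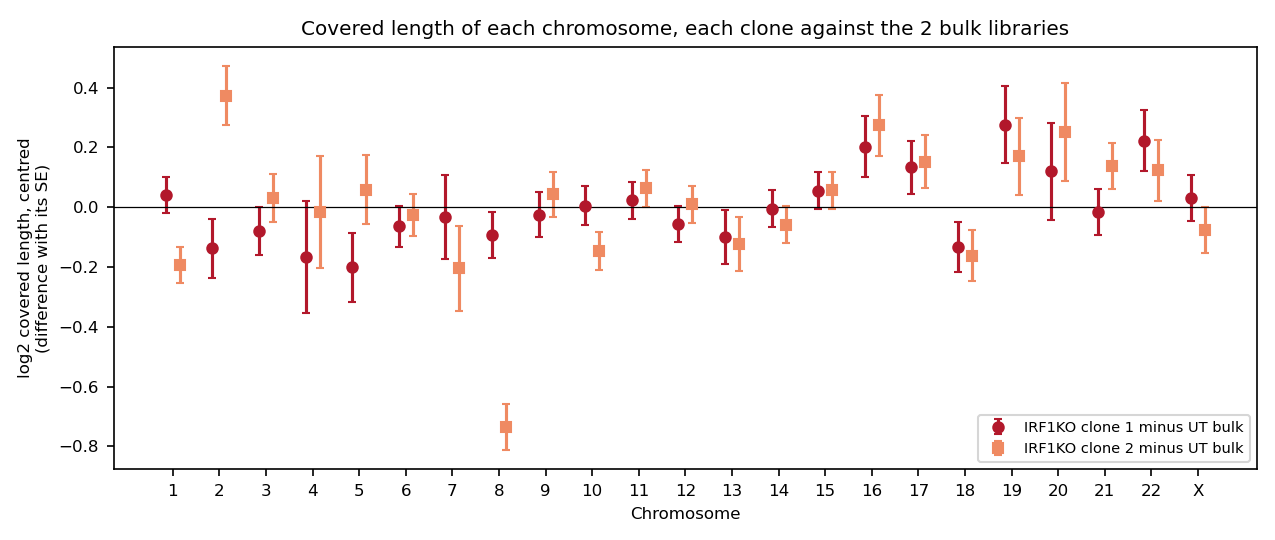
Difference in centred log2 covered length of each chromosome (vertical, by chromosome along the horizontal axis), with its SE, for IRF1KO clone 1 (circles) and IRF1KO clone 2 (squares), each minus the 2 UT bulk libraries. Clone 2 lies at -0.74 on chromosome 8, while clone 1 lies at -0.09.

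The lower chromosome 8 coverage of clone 2 was spread over many windows and genes. Of 22 windows of 5 Mb on that chromosome 11 were called lower in clone 2, out of 37 windows called genome-wide (7.64%), 17 higher and 20 lower; 10 of the 17 higher windows lay on chromosome 2. Clone 1 had 0 windows called by limma. Between the clones 7 windows were called (1.45%), all of them lower in clone 2 and on chromosome 8. Between 5 and 35 Mb of chromosome 8, clone 2 had 673 peaks covering 391 kb and clone 1 954 peaks covering 831 kb, the WT clones 1109 and 907 peaks covering 935 and 785 kb, and the bulk libraries 1199 and 1280 peaks covering 941 and 1064 kb. At gene level 91 of the 518 tested genes on chromosome 8 were lower in clone 2 (17.6%, against 3.15% on the other chromosomes) and 7 in clone 1 (1.35%, against 0.700%). Without chromosome 8, 319 genes were called for the clones together. Peak lists carry no DNA copy number, and its part in this difference was not tested.

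Single loci were compared by merging the peaks of the 4 libraries into 136007 loci. Both clones and neither bulk library held a peak at 3913 loci (2.88%), called gained, and both bulk libraries and neither clone at 6743 (4.96%), called lost, while 42186 were held by all 4. These are counts without a test. With the lists cut to equal length there were 3100 gained and 3010 lost loci, so the excess of lost loci was not kept. It was kept with −log10 q of at least 5 (2809 gained and 4158 lost). It was also kept where absence needed no peak within 1 kb (2477 and 3670). Clone 2 alone held 26837 loci and clone 1 alone 5830, against 8544 and 17519 held by 1 bulk library alone. Gained and lost loci were narrow, with median widths of 525 and 532 bp, against 1650 bp for loci held by all 4. Their positions differed: 18.0% of gained loci lay within 1 kb of a gene end, against 3.47% of lost loci and 34.5% of loci held by all 4, and 39.4% of lost loci lay over 50 kb from any gene end, against 25.3% of gained loci.

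**Figure D5:**
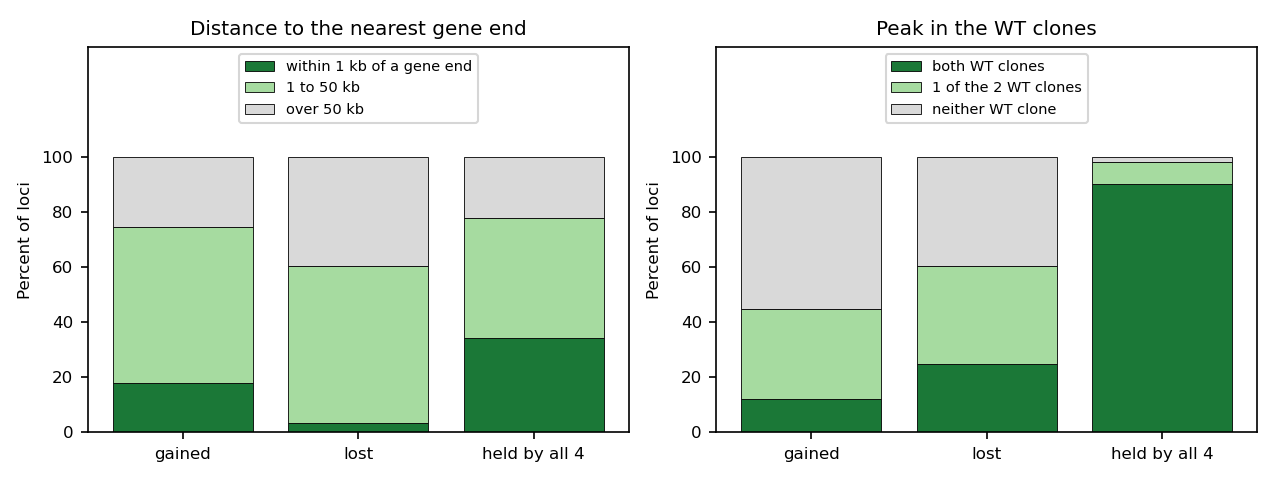
Percent of gained, lost and shared loci (bars, vertical) by distance to the nearest gene end (left) and by presence of a peak in the WT clones (right). Gained loci lie within 1 kb of a gene end in 18.0% of cases and lost loci in 3.47%; both WT clones held 12.2% of gained and 24.7% of lost loci.

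In the WT clones, 12.2% of gained loci held a peak in both libraries and 55.0% in neither, whereas 24.7% of lost loci held a peak in both and 39.6% in neither. Among gained loci with the highest fold enrichment, as the authors' caller gave it, was NUAK1, a kinase related to AMPK, at chr12:106137121-106138824, where the covered bases were 1350 and 1704 in the knockout clones, 776 and 581 in the WT clones and 0 in the bulk line. NUAK1 was also called as a gene, with 4415 and 4295 bp in the knockout clones, 2152 and 1987 bp in the WT clones and 1327 and 1288 bp in the bulk line (1.33 ± 0.14, limma adjusted p = 0.00379). A 3163 bp locus nearest to TENM4, at chr11:79080319-79083481, was covered over 2840 and 3163 bp in the knockout clones and 0 bp in all WT and bulk libraries. Ranked by the smaller fold of the 2 libraries that hold it, the first lost locus was at GSDMB, a gasdermin of pyroptosis, at chr17:39917773-39918780, with 0 bp in both knockout clones, 373 and 458 bp in the WT clones and 1008 and 660 bp in the bulk line. Near F5, coagulation factor V, a lost locus at chr1:169567646-169571092 had 0 bp in the knockout clones, 685 and 0 bp in the WT clones and 3040 and 3272 bp in the bulk line.

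Some genes held many gained loci when every locus was given to its closest gene end, up to 50 kb away. RGS9 had 11 gained loci of 34 assigned, NUAK1 10 of 29, TNS3 9 of 47, PLPP4 8 of 12 and SNAI1, a repressor of E-cadherin, 7 of 17. As a gene SNAI1 had 1736 and 945 bp in the knockout clones, 250 and 243 bp in the WT clones and 339 and 782 bp in the bulk line (0.69, adjusted p = 0.208). Lost loci were most numerous at DEPDC1B, with 16 of 31 assigned, MOK, with 12 of 35, and GRHL2, with 11 of 34; LIFR held 9 of 24. On chromosome 8, 9.06% of loci were lost, and clone 2 lacked 37.5% of the loci that both bulk libraries held there, against 10.9% to 23.9% on each other chromosome. Clone 1 lacked 22.8% on chromosome 8.

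Coverage in MiaPaCa2, another pancreatic cancer line of the series, was read at the same genes. Of the 150 higher genes 42.7% were covered in both untreated MiaPaCa2 libraries, of the 172 lower genes 47.1%, and of all tested genes 81.6%. ZEB2 and TENM4, higher in the knockout clones, had 0 bp in both untreated MiaPaCa2 libraries, as did TMPRSS4, GABRP and RBBP8, which were lower. COL17A1, lower in the knockout clones, had 5465 and 6554 bp there.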

How the data were processed

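H3K27ac ChIP-seq peak lists of 12 libraries, 2 in each of 6 groups, were used. Per the submitters' processing notes, the tools were Trimmomatic 0.38, Bowtie2 2.2.6, SAMtools and MACS2 2.1.0.20150731 on GRCh38. Per the labels, the antibody was ab4729. The deposited peak lists give for each peak a score, a fold enrichment (a ratio) and a −log10 p-value and −log10 q-value from the authors' caller; read depth is unknown, so no interval could be set. The fold served only to rank loci within a list.

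Covered length was counted within 5 kb of the end of each gene with the larger mean coverage over 12 libraries (the start in 75.1% of 15813 genes of known strand; 19974 genes in all). Genes covered in at least 2 libraries were tested on log2(bp + 500), centred per library, with limma 3.58.1 (R 4.3.3; Python 3.11.15) in a model of all 6 groups with 6 residual degrees of freedom and Benjamini-Hochberg adjustment. Single clones had a group each. Windows of 5 Mb used log2(bp + 10 kb) and a mean of at least 50 kb. Loci were peaks merged at an overlap of at least 1 bp. The scripts were tested on simulated data.

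The members, the 20 gene lists and the 7 marker lists were chosen with earlier results of these data known. Named genes were IRF1, the 15 largest called changes each way, called list members and the 4 members with the smallest p in each list, the 5 largest clone differences each way, and the loci with the highest fold (8 each way) or width (4 each way). Genes named outside this rule were chosen after their values were seen. They held an interferon element or many gained or lost loci, or were lipid genes called in 1 clone. The rest were PLPP4, LIFR, ESRP1, CDH1, ACSL5, IFIT1 and SNAI1. Replicate numbers do not pair clones with bulk libraries by the labels.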

Additional observations from a re-analysis of the deposited data

Results flagged for a closer look

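The knockout clones differed from each other by a limma test of the difference itself at 224 genes, with each clone's library assumed to vary like the other groups. The 5 largest differences with clone 2 below clone 1 were at TBC1D31 (-2.81), ARHGEF38 (-2.79), CSGALNACT1 (-2.78), LOC124900418 (-2.71) and GRHL2 (-2.71). TBC1D31 had 0 bp in clone 2 and 3055 bp in clone 1, and ARHGEF38 had 200 bp in clone 2 and 4411 bp in clone 1. The 5 largest with clone 2 above clone 1 were at BEGAIN (3.49), PSD2 (3.25), GRIK1 (3.21), IQGAP2 (2.91) and PTPRN (2.90). GRIK1 had 4041 bp in clone 2 and 0 bp in clone 1, against 1549 and 3840 bp in the bulk line.

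Clone 2 also differed from clone 1 in the covered length of chromosome 8 (-0.64) and of chromosome 2 (0.51), by the same kind of test. TBC1D31, CSGALNACT1 and GRHL2 lie on chromosome 8, as do 40 of the 129 genes lower in clone 2 than in clone 1.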

How the results depend on the processing

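The 322 genes called for the knockout clones against the bulk line became 166 with a mean coverage of at least 500 bp, 209 with windows of 2 kb, 187 with the 8 CFPAC1 libraries, 0 with the 4 libraries alone, and 21 to 1022 with 1 library left out. The 166 genes with a mean coverage of at least 500 bp were 48 higher and 118 lower, against 150 and 172 in the main setting. None of the 51 named genes called in this comparison changed sign under the settings run. In each of them both clones lay beyond both bulk libraries, so a change of sign was unlikely from the start. The calls were less stable: 22 of the 51 were lost with the 8 CFPAC1 libraries, 18 with windows of 2 kb and all 51 with the 4 libraries alone. Named genes that were not called could change sign: IRF1 was at 0.06, and at -0.19 with windows of 2 kb, -0.07 without clone 2 and -0.04 without bulk library 2. The cause was not tested.

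For clone 1 the 193 genes became 397 with no filter, 91 with at least 500 bp and 112 at annotated starts, and 32 to 50 without 1 bulk library. For clone 2 the 1025 genes became 676 with at least 500 bp and 658 at annotated starts, and 392 to 617 without 1 bulk library. Between the clones the 224 genes became 485 with quantile normalization, 739 with no filter, 140 with at least 500 bp, 48 at annotated starts and 135 outside chromosome 8. Against the WT clones the 194 genes became 71 with at least 500 bp, 90 with the 8 CFPAC1 libraries and 33 to 832 with 1 library left out.

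With the replicate number as a block (replicate block), 262 genes were called against the bulk line, 119 against the WT clones and 2 windows in place of 1. Same-numbered clones and bulk libraries correlated at -0.15, and with the pairing crossed 242 genes were called against the bulk line and 112 against the WT clones.

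Chromosomes called were 1 with the 4 libraries alone and 0 to 5 with 1 library left out. Windows called were 5 without centring, 0 with the 4 libraries alone, 0 with the 8 CFPAC1 libraries and 0 to 32 with 1 library left out. Gained loci were 2477 where absence needed no peak within 1 kb, and 6418 to 31782 with 1 library left out. Lost loci were 4158 with −log10 q of at least 5, 3010 with lists cut to equal length, 3670 where absence needed no peak within 1 kb, and 11598 to 25917 with 1 library left out, when fewer libraries have to agree. Alternatives against the WT clones, outside chromosome 8, with a crossed block and for single clones without a bulk library were chosen after seeing the data. Peak lists hold no reads, so a weak peak and an absent one differ only by the caller's threshold.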
